A study of Mus musculus with 4 samples.

Results

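Matrix metalloproteinases, ADAMTS proteases and tissue inhibitors of metalloproteinases were followed in fibroblasts under reprogramming toward hepatocytes. The members are all genes of the deposited table whose symbol is Mmp, Adamts or Timp plus its number. This gave 46 of the 55397 genes listed, namely 23 Mmp, 19 Adamts and 4 Timp genes. Primary mouse embryonic fibroblasts (MEFs) came from E13.5 embryos of C57BL/6J mice carrying Prox1(fl/fl), and each preparation pooled the distal limbs of several embryos. All 4 cultures received lentivirus encoding 4in1, a set of liver transcription factors, and were collected at day 14. The 2 Prox1 KO-labelled libraries also received cre-GFP, an active recombinase, and the 2 control libraries dcre-GFP, its non-functional form. The labels number the libraries of each group 1 and 2 and do not say whether the numbers stand for separate embryo pools. The p-values therefore describe these libraries only, and each gene's variance is pooled with that of other genes. In bulk RNA, fewer cells of a type and less RNA per cell cannot be told apart.

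MMPs and ADAMTSs are zinc-dependent proteases that cut collagens, proteoglycans and other matrix proteins outside the cell or at its surface. Most are made as inactive precursors, and the TIMPs bind and block the active enzymes. In connective tissue, fibroblasts are a main source of these proteases and of their inhibitors.

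The libraries held between 42469031 and 48524008 reads on genes. Values are normalized counts, which are reads divided by the library's size factor, and 15809 genes with a mean of at least 10 over the 4 libraries were tested. Prox1 itself had 72.7 and 61.6 normalized counts in the Prox1 KO-labelled libraries and 60.6 and 25.5 in the controls (log2 fold change 0.75, adjusted p = 0.0936, limma), so the targeted gene was not lower, and which group is the knockout is taken from the labels. The gene count includes exons that Cre does not remove. Xist had 14495 and 13944 normalized counts in the replicate 1 libraries, labelled Prox1 KO and control in this order, against 4.89 and 1.06 in replicate 2. The replicate number was therefore kept as a block in the test. Hepatocyte markers summed to between 15442 and 16634 normalized counts in the Prox1 KO-labelled libraries and between 19434.5 and 20943.5 in the controls, with 5 of 6 lower, among them Trf (log2 fold change -1.30), Ttr (-0.90) and Apoa1 (-0.72). Fibroblast markers summed to between 912514 and 1077937 against 971591 and 1151248, and 3 of 8 (Pdgfra, Col3a1 and Dcn) were lower. Markers of both cell types were present in all 4 libraries, and their part in the members’ differences was not tested.

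Of the 46 members, 38 reached a mean of 10 normalized counts and could be tested. Mmp1a, Mmp7, Mmp12, Mmp20, Mmp21, Adamts13, Adamts18 and Adamts19 could not, and Mmp20, the enamel protease, had 0 reads in every library. Just above the limit were Adamts8 and Adamts16 with means of 10.03 and 10.3 normalized counts, and just below it Mmp12 and Mmp1a with 7.28 and 7.24. Among the 38, 13 passed an adjusted p of 0.05 in limma, 6 higher and 7 lower in the Prox1 KO-labelled libraries. Of all genes tested, 11.4% passed, 5.09% higher and 6.29% lower. Mmp8, Mmp10, Mmp15, Mmp28, Adamts12 and Timp3 were higher, and Mmp8 reached the mean of 10 only through the Prox1 KO-labelled libraries. Mmp2, Mmp16, Adamts2, Adamts4, Adamts10, Adamts15 and Adamts17 were lower. All 13 moved the same way in both replicate pairs, as did 29 of the 38 members and 10406 of all 15809 genes tested. Selection by the test with the replicate block on the same pairs favours such agreement. In 9 of the 38 both Prox1 KO-labelled libraries lay above both controls and in 9 below, against 21.8% and 22.6% of all genes tested.

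The median log2 fold change over the 38 members was -0.12, against -0.0022 over all genes tested. It was -0.12 in pair 1 and 0.0051 in pair 2, so it was near 0 in pair 2. By family it was -0.076 for the Mmp genes, -0.22 for the Adamts genes and 0.078 for the Timp genes. Of the 16 Adamts genes tested, 14 had a negative value, against 8008 of all 15809 genes tested. In 11 of the 16 both pairs had the same sign, near the share over all genes tested, 10406 of 15809. In pairs 1 and 2 the medians were -0.0042 and 0.12 for the Mmp genes, -0.23 and -0.17 for the Adamts genes and 0.080 and 0.075 for the Timp genes, so the sign held in both pairs for the Adamts and Timp genes and turned for the Mmp genes. The calls depended on the test. Without the replicate block 0 members passed and 7 had an unadjusted p under 0.05, and over all genes 0 passed and 1783 had such a p. DESeq2 with the block, which called 3.83% of the genes it gave an adjusted p, called 2 members, Mmp2 and Timp3.

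**Figure D1:**
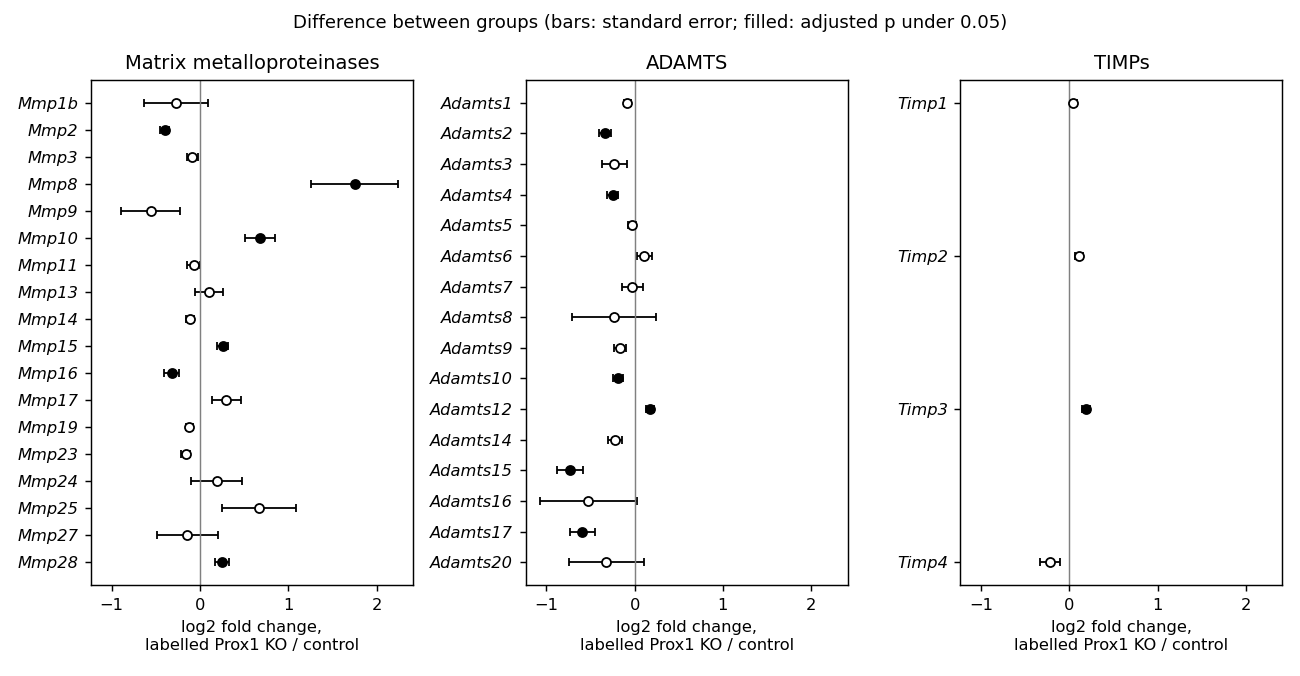
Log2 fold change of each tested member, Prox1 KO-labelled libraries over control, with the standard error as bars and filled points for an adjusted p under 0.05 in limma (2 libraries per group). Of the 16 Adamts genes, 14 lie left of 0 (over all genes tested, 8008 of 15809 were negative), and Mmp8 lies farthest right with a wide bar.

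Levels were compared between genes as normalized counts per kb of annotated exonic length, which joins the exons of all transcripts. This length was 5960 bases for Mmp14 and 8144 for Timp3, against 3238 and 4722 in the longest transcript. For Mmp2 it was 3371 against 3078, so levels per kb depend on this choice. Mmp2 came first with a mean of 39923 per kb over the 4 libraries, followed by Timp1 with 31429, Timp2 with 29099, Timp3 with 7817 and Mmp14 with 7727. Adamts1, a protease of versican and aggrecan, came next with 6135 per kb, and Mmp3, a stromelysin, with 5118. The range of Mmp2 over the libraries overlapped that of Timp1, and the range of Timp3 that of Mmp14, so the order within each of these pairs was not separated by the spread. The range of Mmp2 also overlapped that of Timp2, and in replicate 1 of the Prox1 KO-labelled libraries Mmp2, with 28055 per kb, lay below Timp1 with 31053 and Timp2 with 30642. Timp2 and Timp3 did not overlap. Timp1 and Timp2 did not overlap by a narrow gap, with a lowest Timp1 library of 30801 and a highest Timp2 library of 30642 per kb. Their joined lengths were 888 and 3896 bases, against 883 and 3709 in the longest transcript, so this separation depends on the length used. From rank 12 down, the ranges of most neighbours overlapped, and Adamts20 was last with 1.46 per kb.

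**Figure D2:**
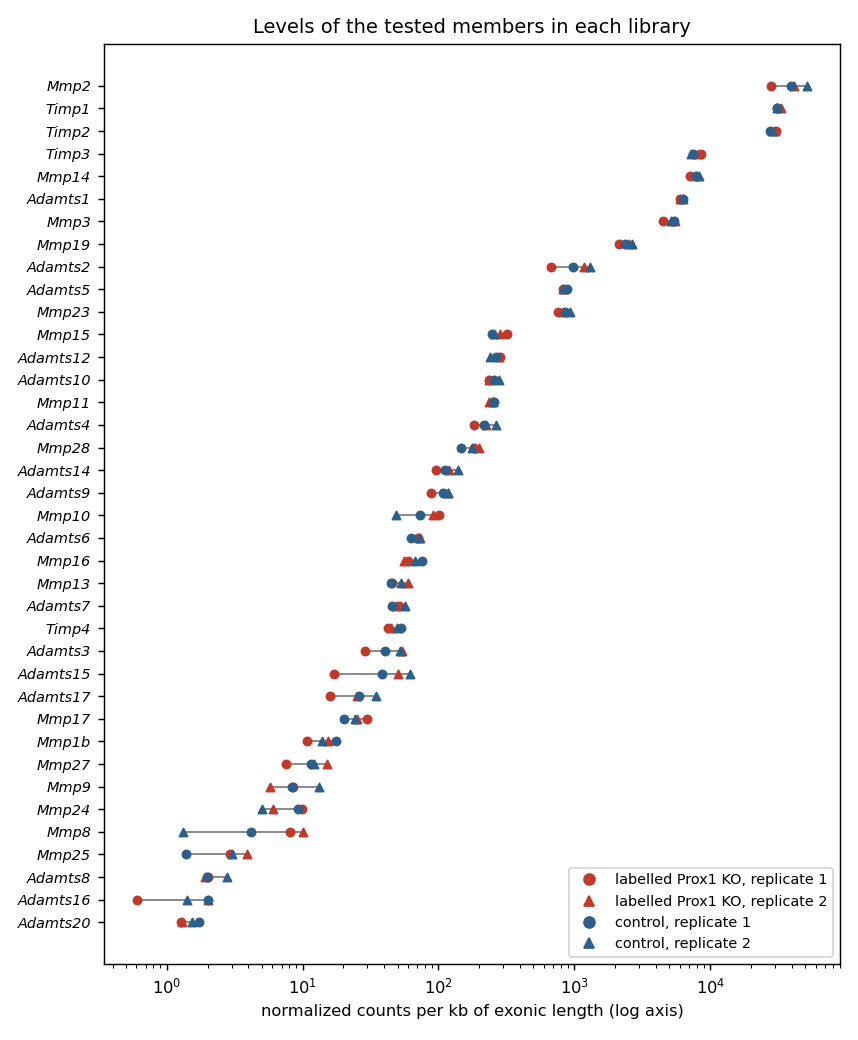
Normalized counts per kb of exonic length (log axis) of the 38 tested members in each library, ordered by their mean, with a grey line from the lowest to the highest library. Mmp2, Timp1 and Timp2 lie far above the rest, and Mmp2 and Adamts15 spread more widely than their neighbours.

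Mmp2, or gelatinase A, cleaves denatured collagen and basement membrane collagen, and it was the most abundant protease here. It lies on chromosome 8 of GRCm38 from 92827291 to 92853420. Its normalized counts were 94572 and 138838 in the Prox1 KO-labelled libraries and 131635 and 173281 in the controls. Each Prox1 KO-labelled library was below the control of its own number, while the groups overlapped, with the higher value of each group in replicate 2. The fall was -0.40 on the log2 scale (standard error 0.051, adjusted p = 0.000107, limma), with -0.48 in pair 1 and -0.32 in pair 2. Mmp9, the other gelatinase, had between 20.5 and 46.8 normalized counts and overlapping groups (log2 fold change -0.56, standard error 0.34, adjusted p = 0.345, limma).

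The membrane-type MMPs, which are anchored at the cell surface, moved in both directions. Mmp14, the main activator of pro-MMP2, had 42159 and 46438.5 normalized counts in the Prox1 KO-labelled libraries and 46822 and 48787 in the controls. The groups did not overlap, but the difference did not pass the test (log2 fold change -0.11, unadjusted 95% interval -0.20 to -0.022, adjusted p = 0.11, limma). It passed with quantile normalization (adjusted p = 0.019, limma), a setting that called 9.18% of all genes, and without the filter on low values (adjusted p = 0.0476, limma), which called 7.44%. Mmp15 had 1732 and 1526 normalized counts against 1338 and 1375 in the controls and was higher in both Prox1 KO-labelled libraries (log2 fold change 0.26, standard error 0.063, adjusted p = 0.0129, limma). Mmp16 had 516 and 479.9 against 659 and 585, with both Prox1 KO-labelled libraries below both controls (log2 fold change -0.32, standard error 0.083, adjusted p = 0.0203, limma). Mmp17, Mmp24 and Mmp25 had log2 fold changes of 0.30, 0.19 and 0.67 and did not pass.

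The collagenases and stromelysins, which open fibrillar collagen and cut a broad set of matrix proteins, are mostly encoded in 1 cluster. On chromosome 9 of GRCm38, 10 Mmp genes lie between 7272514 and 7699585, a span of 427 kb. Mmp3 had between 8080 and 9858 normalized counts, while the other 9 ranged from 0 to 175 in single libraries. Of the 6 tested, 2 were higher and 0 lower in the Prox1 KO-labelled libraries, against 5.09% and 6.29% of all genes tested (limma). Mmp8, which is among the 2, reached the mean of 10 only through the Prox1 KO-labelled libraries.

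Mmp10, or stromelysin-2, had 175 and 157 normalized counts in the Prox1 KO-labelled libraries and 127 and 84.1 in the controls. Both Prox1 KO-labelled libraries were above both controls (log2 fold change 0.68, standard error 0.17, adjusted p = 0.0162, limma). Mmp8, the collagenase best known from neutrophils, had 19.7 and 24.4 normalized counts against 10.1 and 3.19, from 19, 25, 11 and 3 reads. Its mean was 22.1 in the Prox1 KO-labelled libraries and 6.65 in the controls, so it reached the mean of 10 only through the former. The groups did not overlap, and its log2 fold change was 1.75, with a standard error of 0.50 (adjusted p = 0.0327, limma). Pair 1 gave 0.90 and pair 2 gave 2.60, and a pseudocount of 10 gave 0.97 over both. It was the largest among the members over both pairs, while in pair 1 Mmp25 had 0.99. The summed reads, 44 against 14, gave a depth-adjusted ratio of 3.21 with an exact 95% counting interval of 1.73 to 6.35, which covers counting error only. The interval was computed only for called members with a mean under 50, from the same reads, so it is no separate support. The 8 neutrophil markers summed to between 20.5 and 30.1 normalized counts in the Prox1 KO-labelled libraries and between 39.4 and 42.2 in the controls, and Mpo and Ngp were at 0 in every library. Only 1 of the 8 was tested. It did not pass, with log2 fold changes of 0.23 in pair 1 and -1.18 in pair 2. The 7 macrophage markers summed to between 510 and 605 against 651 and 678, with Cd14 lower and Adgre1 at 0 throughout. Only 4 of the 7 were tested, 2 with a positive and 2 with a negative log2 fold change. The 5 endothelial markers summed to between 933 and 1063 against 623 and 751, with Kdr higher and Cldn5 at 0. Only 2 of the 5 were tested, and the one beside Kdr had a negative log2 fold change. Sums of chondrocyte and osteoblast markers overlapped between the groups. Any part of these cell types in the members’ differences was not tested.

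Mmp3, the other stromelysin tested in the cluster, did not pass. The log2 difference was -0.084 (standard error 0.061, adjusted p = 0.45, limma), with -0.27 in pair 1 and 0.10 in pair 2. Mmp13, the main collagenase of rodents, had between 119 and 158 normalized counts and a log2 fold change of 0.099 (adjusted p = 0.765, limma). Mmp1b and Mmp27 had fewer than 34 normalized counts in every library and did not pass. Only 0.308% of the 100-base windows of Mmp10's longest transcript also occur in Mmp3, and 0 of those of Mmp8 occur in another gene.

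**Figure D3:**
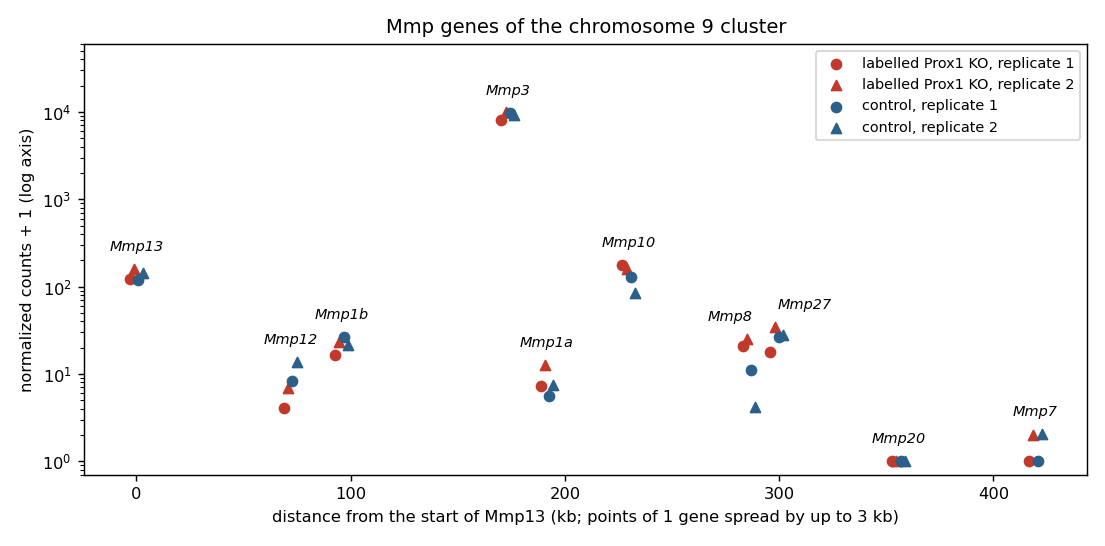
Normalized counts + 1 (log axis) of the 10 Mmp genes of the chromosome 9 cluster in each library, against the distance of the gene from Mmp13 in kb. Mmp3 stands far above its neighbours, and for Mmp10 and Mmp8 both Prox1 KO-labelled libraries lie above both controls.

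Most of the cluster genes shared a promoter feature that the choice of members did not use. AP-1, the dimer of Fos and Jun proteins, is the textbook activator of several of these genes through a site just before their start. In RefSeq windows from 250 bases before to 50 after the start (GRCm38.p6), 32 of the 46 members had an entry. The letters TGAGTCA, or TGACTCA on the other strand, occurred in 7 of the 10 cluster genes and in 0 of the 22 other members with a window, against 5.2% of all 32851 windows. They began between 93 and 35 bases before the start, which is counted as position 0. In all 7 the letters TATAAA followed, beginning 19 to 48 bases further on. TATAAA or TTTATA occurred in 13.6% of all windows. Mmp8, Mmp20 and Mmp27 had no AP-1 letters in their windows. Mmp7 and Mmp12 each also had a window at another start, without these letters. A match describes the letters only.

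The stretches below are from the 4 cluster genes that were tested and hold these letters, with the AP-1 letters and TATAAA in capitals, 5′ to 3′ on the gene's strand. They are chr9:7272467-7272538 (plus) for Mmp13, chr9:7388060-7388131 (minus) for Mmp1b, chr9:7445764-7445835 (plus) for Mmp3 and chr9:7502267-7502338 (plus) for Mmp10.
Mmp13: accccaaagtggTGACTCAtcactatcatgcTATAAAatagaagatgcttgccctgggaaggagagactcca
Mmp1b: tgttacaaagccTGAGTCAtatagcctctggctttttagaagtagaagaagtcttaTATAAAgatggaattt
Mmp3: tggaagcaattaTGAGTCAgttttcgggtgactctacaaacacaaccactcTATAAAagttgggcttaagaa
Mmp10: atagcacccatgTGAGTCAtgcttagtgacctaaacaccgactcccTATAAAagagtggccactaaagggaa

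Of these 4 genes with the same letters, Mmp10 passed the test and the other 3 did not. Among 14 AP-1 and partner factors, all tested, 2 were higher and 1 lower in limma and in edgeR, and 0 were called by DESeq2 with the block. Limma called 5.09% of all genes tested higher and 6.29% lower. Fosl1, which pairs with Jun proteins, had 2402 and 2039 normalized counts in the Prox1 KO-labelled libraries and 2007 and 1754 in the controls (log2 fold change 0.24, adjusted p = 0.00625, limma). Rela, an NF-kB subunit, had a log2 fold change of 0.19 and Junb one of -0.16 (adjusted p = 0.0121 and 0.0216, limma).

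Among the other MMPs, Mmp28 passed and the rest did not. Mmp28, or epilysin, had 708 and 768 normalized counts in the Prox1 KO-labelled libraries and 564 and 678 in the controls. The groups did not overlap, and the adjusted p of 0.047 (limma, log2 fold change 0.25, standard error 0.078) lay near the threshold and was missed with 5 of the 10 alternatives run. Of its 100-base windows, 11% also occur in 1700020L24Rik on the opposite strand, which had at most 4.26 normalized counts. Mmp19 and Mmp23 had log2 fold changes of -0.12 and -0.16 (adjusted p = 0.0712 and 0.0601, limma), and Mmp19 shares 22.8% of its windows with genes on the opposite strand. Mmp11, or stromelysin-3, lay slightly lower in both Prox1 KO-labelled libraries without passing (log2 fold change -0.068, adjusted p = 0.645, limma).

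**Figure D4:**
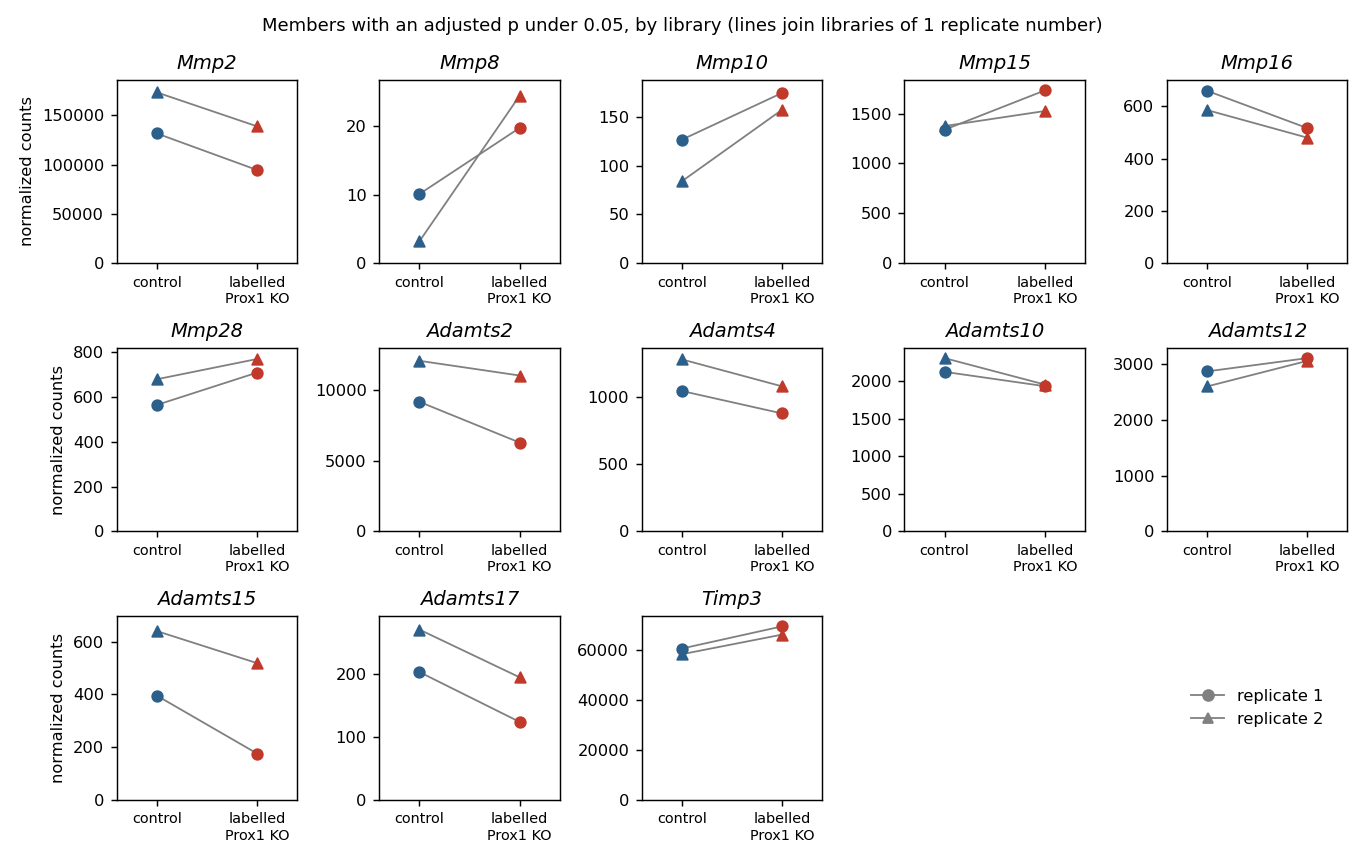
Normalized counts of the 13 members with an adjusted p under 0.05 in limma, with each vertical axis starting at 0 and a line joining the control and the Prox1 KO-labelled library of 1 replicate number. In Mmp2, Adamts2, Adamts4 and Adamts15 the pairs move in the same direction but the groups overlap, and in the other 9 the groups do not overlap. Over all genes tested, 21.8% lay above and 22.6% below without overlap. The 13 were picked by a test on the same libraries, which favours such separation.

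The proteoglycan-cleaving ADAMTSs act on aggrecan and versican, and all 7 tested had negative log2 fold changes, of which 2 passed. In 5 of the 7 both pairs had the same sign, near the share over all genes tested, 10406 of 15809. Over all 15809 genes tested, 8008 were negative and 6.29% passed as lower (limma). Adamts4, or aggrecanase-1, had 876 and 1077 normalized counts in the Prox1 KO-labelled libraries and 1043 and 1277 in the controls. Each was below its own control, with overlapping groups (log2 fold change -0.25, standard error 0.063, adjusted p = 0.0179, limma). Adamts15 had 176 and 519 against 396 and 641, the steepest fall among the ADAMTSs that passed. The fall was -0.74 on the log2 scale (standard error 0.15, adjusted p = 0.00396, limma), with -1.17 in pair 1 and -0.30 in pair 2, so pair 1 carried most of it. Adamts1, the most abundant ADAMTS, had 31599.7 and 31640.3 against 33449.6 and 33419 and did not pass (log2 fold change -0.080, adjusted p = 0.233, limma). Adamts5, Adamts8, Adamts9 and Adamts20 had values between -0.32 and -0.028.

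The procollagen N-proteinases remove the amino-terminal propeptide of fibrillar collagens. Adamts2, the enzyme of type I procollagen, had 6302 and 11051.5 normalized counts in the Prox1 KO-labelled libraries and 9189 and 12095 in the controls. Replicate 1 of the Prox1 KO-labelled libraries was the lowest of the 4, and the groups overlapped (log2 fold change -0.34, standard error 0.066, adjusted p = 0.00342, limma). The change was -0.54 in pair 1 and -0.13 in pair 2. Adamts3 and Adamts14, with log2 fold changes of -0.23 and -0.22, did not pass (adjusted p = 0.36 and 0.097, limma).

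Adamts10 and Adamts17 are linked to fibrillin microfibrils. Adamts10 had 1935 and 1957 normalized counts in the Prox1 KO-labelled libraries and 2126 and 2309 in the controls (log2 fold change -0.19, standard error 0.052, adjusted p = 0.0296, limma). Adamts17 had 124 and 195 against 203 and 270.4 (log2 fold change -0.59, standard error 0.14, adjusted p = 0.0109, limma). Both genes were lower without overlap of the groups. Adamts12, which with Adamts7 cleaves cartilage oligomeric matrix protein, was the only ADAMTS that passed upward in this test. It had 3114 and 3065 normalized counts against 2876 and 2606, with no overlap (log2 fold change 0.17, standard error 0.049, adjusted p = 0.0304, limma). The adjusted p was 0.102 with a correction for GC content and length. For Adamts7 the log2 difference was -0.026 (adjusted p = 0.924, limma).

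The inhibitors moved little. Timp3, which is held in the matrix and also blocks several ADAMTSs, had 69501 and 66193.5 normalized counts in the Prox1 KO-labelled libraries and 60604 and 58333 in the controls. Both Prox1 KO-labelled libraries were above both controls, a 1.14-fold difference (log2 fold change 0.19, standard error 0.042, adjusted p = 0.00798, limma). Timp3 lies within Syn3, which is transcribed from the other strand, and 35.3% of its windows also occur there. Syn3 had between 7.82 and 20.2 normalized counts, far fewer than Timp3.

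Timp2, which inhibits MMP2 and at the surface helps MMP14 to activate it, had 119381 and 115884 normalized counts in the Prox1 KO-labelled libraries against 107697 and 110521 in the controls. The groups did not overlap, and the log2 fold change of 0.11 did not pass (standard error 0.047, adjusted p = 0.166, limma). With quantile normalization it did (adjusted p = 0.0237, limma). Timp1 had 27575 and 29154.5 against 27351 and 27555.5, a log2 fold change of 0.047 with an unadjusted 95% interval of -0.039 to 0.13 (adjusted p = 0.534, limma). Timp4, the scarcest of the 4, had 253 and 266 against 311 and 292 (log2 fold change -0.22, standard error 0.11, adjusted p = 0.272, limma). Its groups did not overlap, and it was the only inhibitor with a negative value.

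Summed per kb, the Mmp genes gave 43548 and 58803 in the Prox1 KO-labelled libraries and 56449 and 69219 in the controls. Mmp2 made up between 64.4% and 74.3% of these sums. The Timp genes gave 70272 and 70749 against 65938 and 66611. The ratio of the Timp to the Mmp sum was 1.61 and 1.20 in the Prox1 KO-labelled libraries and 1.17 and 0.962 in the controls, higher in both pairs. The ratio of Timp2 to Mmp2 was 1.09 and 0.722 against 0.708 and 0.552. These are ratios of RNA levels that depend on the gene lengths used, and they were not tested.

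**Figure D5:**
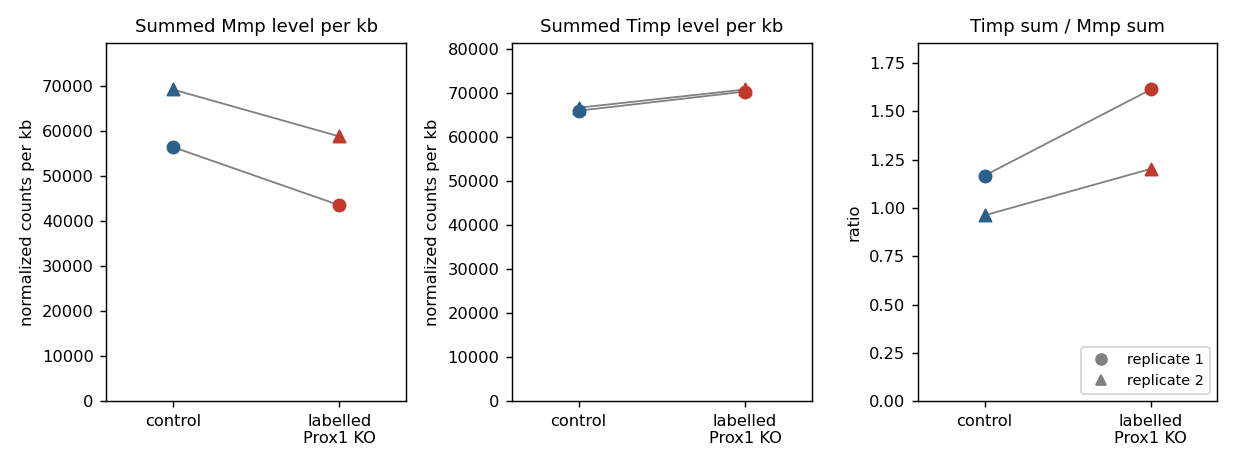
Summed normalized counts per kb of the Mmp and of the Timp genes, and the ratio of the sums, in each library, with lines joining libraries of 1 replicate number. The ratio is between 0.962 and 1.61, and in each pair it is higher in the Prox1 KO-labelled library.

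The replicate number moved members as well. In the same fit, 9 of the 38 members were higher in replicate 2 than in replicate 1 and 0 were lower (limma, adjusted p of 0.05). Of all genes tested, 7.88% differed between the replicate numbers, 4.39% higher and 3.49% lower in replicate 2. With an unadjusted p under 0.05 in limma, 12 members were higher and 2 lower in replicate 2. Of all 15809 genes tested, 1636 were higher and 1490 lower at this threshold. The 9 were Mmp2, Mmp19, Adamts2, Adamts3, Adamts4, Adamts9, Adamts14, Adamts15 and Adamts17. For Mmp2 the log2 difference between replicates was 0.48 beside -0.40 between the groups, and for Adamts15 it was 1.13 beside -0.74. For Adamts2 it was 0.60 beside -0.34. Both comparisons use the same 4 libraries. Embryo pool, culture and any other difference between the replicate numbers cannot be told apart.

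Genes that act on or with these families changed in part. Limma called 5.09% of all genes tested higher and 6.29% lower in the Prox1 KO-labelled libraries. Of 18 genes of protease activation and clearance, 16 were tested, with 2 higher and 2 lower in the Prox1 KO-labelled libraries, against 1 and 1 in DESeq2 with the block. Plat, the tissue plasminogen activator, fell from 4327 and 5530.1 normalized counts in the controls to 3093 and 3953 (log2 fold change -0.48, adjusted p = 3.86e-06, limma). A2m, a circulating protease trap, had a log2 fold change of 0.40 and Spock3 one of -0.43 (adjusted p = 0.0078 and 0.0229, limma). Plg, the plasminogen gene, had a mean under 10 and was not tested.

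The ADAMTS-like genes encode relatives without the protease domain. Of 7 tested, 3 were lower and 0 higher in limma and in edgeR, and 0 had an unadjusted p under 0.05 upward. DESeq2 with the block called 1 lower and 0 higher. The 3 were Thsd4, Adamtsl1 and Adamtsl3, with log2 fold changes of -0.39, -0.25 and -0.22. Of 20 genes of matrix substrates, 17 were tested and 5 were lower and 0 higher in limma. Another 2 had an unadjusted p under 0.05 upward in limma, and edgeR called 2 higher. DESeq2 with the block called 4 lower and 0 higher. Lum, a small collagen-binding proteoglycan, fell from 4043 and 4736 normalized counts to 1761 and 3064 (log2 fold change -0.91, adjusted p = 5.68e-06, limma). Comp and Dcn had log2 fold changes of -0.53 and -0.43 (adjusted p = 6.81e-05 and 0.00135, limma). The median log2 fold change of the 17 was 0.033. Over all genes tested, 5.09% were called higher and 6.29% lower in limma. Of 8 ADAM sheddases, all tested, 0 passed in limma, edgeR or DESeq2, and 2 had an unadjusted p under 0.05 in limma, both higher.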

How the data were processed

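Bulk RNA-seq was analysed for 4 libraries of MEFs at day 14, 2 labelled Prox1 KO and 2 controls, grouped and numbered from the labels. Per the methods, the authors prepared dUTP (stranded) libraries, mapped reads to mm10 with STAR and normalized counts by DESeq2 size factors. The counting tool and annotation are not given in the sources used here. The authors deposited a signal per gene, read counts divided by the size factor, and 100% of positive values came back as whole reads within a tolerance of 0.02. Their table of comparison values was not used.

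The main test was limma 3.58.1 in R 4.3.3 for genes with a mean of at least 10, on log2(normalized counts + 1), where small counts show too small a change, with the replicate number as a block and Benjamini-Hochberg adjustment over 15809 genes. With this block few residual degrees of freedom remain per gene. Limma pools the variance across genes, so standard errors and p-values rest largely on the spread of other genes. A standard error can thus be small although the pairs of that gene differ. In the study’s own model the MEF line was a covariate. Deviations of same-numbered libraries correlated across genes (0.40 over all, 0.33 over autosomal genes), and Xist separated the numbers. Libraries of 1 group differed beyond counting noise in 34.3% and 35.4% of genes, so none was a duplicate. edgeR 4.0.16 and DESeq2 1.42.0 on recovered reads, other pseudocounts, filters and scalings, and single pairs were alternatives. Scripts were tested on simulated data.

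Coordinates and exonic lengths come from GENCODE vM21 on GRCm38, which matched 55137 gene identifiers, and promoter windows from RefSeq. Named with all values were members past the test in the same direction in both pairs, the Timp genes and the 5 highest per kb. Other members named are given by range or by fold change and were picked with their values in view. From each list of related genes at most 3 called genes per direction were to be named. The values of 1 such gene are not reported here. The members, gene lists and rules were chosen with earlier results of these data known.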

Additional observations from a re-analysis of the deposited data

How the results depend on the processing

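The replicate block decided most calls. Without it limma called 0 genes of 15809 and 0 of the 38 members, and DESeq2 with the block called 483 genes and 2 members, 10 of the 13 being lost and Mmp8 receiving no adjusted p. Under the remaining alternatives over all 4 libraries (pseudocounts of 0.1 and 10, no filter, a mean of at least 50, quantile normalization, TMM factors, edgeR) and the GC and length correction with the replicate block, between 12 and 15 members were called. Mmp28 was lost with a pseudocount of 10, TMM factors and edgeR, and Adamts12 with quantile normalization and the GC and length correction. Gained were Mmp14 without the filter, Mmp14 and Timp2 with quantile normalization, Mmp23 with edgeR, and Mmp19, Adamts9 and Adamts14 with the GC and length correction. The 13 called members, Mmp14 and the Timp genes kept their direction in all of these and in both single pairs, while other members, Mmp3 and Mmp9 among them, turned between the pairs. For the called members, selection by the test on the same pairs favours a shared direction. The median log2 fold change of the members was -0.12 without replicate 2 and 0.0051 without replicate 1. A single pair leaves no residual degrees of freedom, so no test was made there. Causes were not tested. Depth limits members with few reads, such as Mmp8, Adamts8 and Adamts16.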
